A study of Mus musculus with 6 samples.

Results

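The numbered Zfp genes are the mouse zinc finger genes whose symbols are Zfp and a number. They were chosen from the raw count table by symbol, leaving out Zfp36, Zfp57 and Zfp352, and by a mean level of at least 3 CPM (counts scaled to the total of the library) over all 6 libraries. That rule took 251 of 25239 genes. It took them from 389 numbered Zfp symbols at any level, of which 138 lay under 3 CPM. The values that chose the members were their mean levels, so a level above 3 CPM is not a result; 11 members had a WT mean under 3 CPM and 6 a cKO mean under it. Just inside the limit were Zfp408 at 3.04 CPM, Zfp771 at 3.05 and Zfp668 at 3.08, and just outside were Zfp213 at 2.99, Zfp819 at 2.95 and Zfp948 at 2.92.

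The libraries hold poly(A) RNA of mouse oocytes that the labels call fully growing oocytes (FGO), harvested 36 to 48 h after females received PMSG, which drives follicle growth. A group of 3 libraries came from wild-type (WT) females and a group of 3 from Gdf9-cre Nat10 cKO females, in which the Cre driver acts in oocytes and removes Nat10, the gene of the RNA cytidine acetyltransferase. Age, strain, oocytes per library and whether libraries came from separate females are not in the labels, so the spread behind each p-value may be technical. Library totals ranged from 20167665 to 29407659 counts, and a count of 0 allows up to 3 counts, or 0.102 to 0.149 CPM, for counting error only.

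Zinc finger proteins of the C2H2 type read DNA with an array of fingers, each a short loop that holds a zinc ion between a pair of cysteines and a pair of histidines. Many carry a KRAB domain, which binds the corepressor TRIM28 (also called KAP1); TRIM28 brings the histone methyltransferase SETDB1 and heterochromatin proteins, and the bound locus is silenced. KRAB zinc finger genes arose by repeated duplication and lie in clusters, and their best known targets are endogenous retroviruses and imprinted loci, which the oocyte and the early embryo keep silent. Zinc finger genes without a KRAB domain have more varied roles, in transcription, in ribosome assembly and in RNA binding.

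The members were sorted by their annotated proteins: fingers were counted in the longest, and a KRAB or SCAN pattern could lie in any. A KRAB A box was found by pattern in 130 members with fingers. A SCAN domain, a dimerization domain, was found in 4 others without such a box. Fingers alone were found in 105 members, no finger of the searched spacing in 10, and 2 (Zfp33b and Zfp939) had no matched coding transcript. The patterns are approximate: a KRAB box that departs from the pattern would be missed, and its gene would be counted as fingers-only. The KRAB members had a median of 12 fingers and the fingers-only members a median of 7. A single finger from the middle of the array is shown for 4 members that differ in their response, as coding bases of GRCm38 with the codons of the zinc-binding cysteines and histidines in capitals. Zfp944 and Zfp68 are KRAB members that fell in cKO, and Zfp787 and Zfp580 are fingers-only members that rose.
Zfp944, chr17:22339230-22339292, minus strand: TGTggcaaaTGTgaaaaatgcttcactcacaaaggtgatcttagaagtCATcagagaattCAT
Zfp68, chr5:138606707-138606769, minus strand: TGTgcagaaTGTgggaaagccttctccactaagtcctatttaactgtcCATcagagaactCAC
Zfp787, chr7:6132735-6132797, minus strand: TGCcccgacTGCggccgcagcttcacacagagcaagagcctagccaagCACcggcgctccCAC
Zfp580, chr7:5053180-5053242, plus strand: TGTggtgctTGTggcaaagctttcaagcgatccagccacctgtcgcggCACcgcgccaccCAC
All 4 stretches are exonic coding sequence of 63 bases and 21 codons. In the Zfp944 finger 5 of 21 codons ended in G or C and the GC content was 36.5%. In the Zfp68 finger the count was 9 and the GC content 44.4%, in the Zfp580 finger 14 and 63.5%, and in the Zfp787 finger 19 and 68.3%. Over whole genes the contrast ran the same way: the median transcript GC content was 40.7% for KRAB members and 50.6% for fingers-only members, and the median share of codons ending in C was 19.4% against 30.3%.

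Nat10 itself, the deleted gene, was at 48.0, 45.0 and 64.5 CPM in WT and at 7.18, 7.64 and 7.98 CPM in cKO, so it went with the labels. Log2 CPM correlated at 0.972 to 0.98 across genes within a genotype and at 0.917 to 0.947 between genotypes, and no library stood apart from its group. Summed oocyte markers (11 of 12 listed were in the table) ranged from 24532 to 28028 CPM in WT and from 30577 to 31671 in cKO, with 3 called higher and 1 lower. The summed 11 granulosa and cumulus markers were at 79.6 to 82.4 CPM in WT and 69.7 to 71.6 in cKO. Inha and Hsd17b1 among them were lower. The 6 theca and stroma markers summed to 2.83 to 4.32 CPM in WT and 2.38 to 3.58 in cKO, with Acta2 lower. Sums of other lists were higher in cKO. The 5 blood and immune markers, 3 of them at 0 in every library, summed to 2.38 to 2.96 CPM in WT and 3.58 to 3.91 in cKO. The 2 endothelium markers summed to 53.5 to 60.05 CPM in WT and 59.4 to 68.8 in cKO, with overlap. No marker of these last lists was called. The part of these marker levels in the results on Zfp genes was not tested.

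As a group the numbered Zfp genes took a smaller share of the poly(A) RNA in cKO oocytes than in WT oocytes. Summed over the 251 members, the level was 12367, 12907 and 11742 CPM in WT and 9334, 9447 and 8328 CPM in cKO, or 73.2% of the WT mean. The groups did not overlap. The KRAB members summed to 6399, 6896 and 5243 CPM in WT and to 3785, 4039 and 2987 CPM in cKO, or 58.3% of the WT mean. Here too every WT library was above every cKO library, and the lowest WT value was that of WT replicate 3. The 105 fingers-only members summed to 5068, 5071 and 5507 CPM in WT and to 4793, 4585 and 4584 CPM in cKO, or 89.2% of the WT mean. Levels per library and their sums, here and for Nat10, and levels per kb are CPM scaled with TMM factors. The 3 CPM rule, the other minimum levels, the summed markers and the limit for a count of 0 use plain library totals. Either CPM is a share of the RNA: less of a transcript per oocyte and more of other transcripts cannot be told apart in it.

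**Figure D1:**
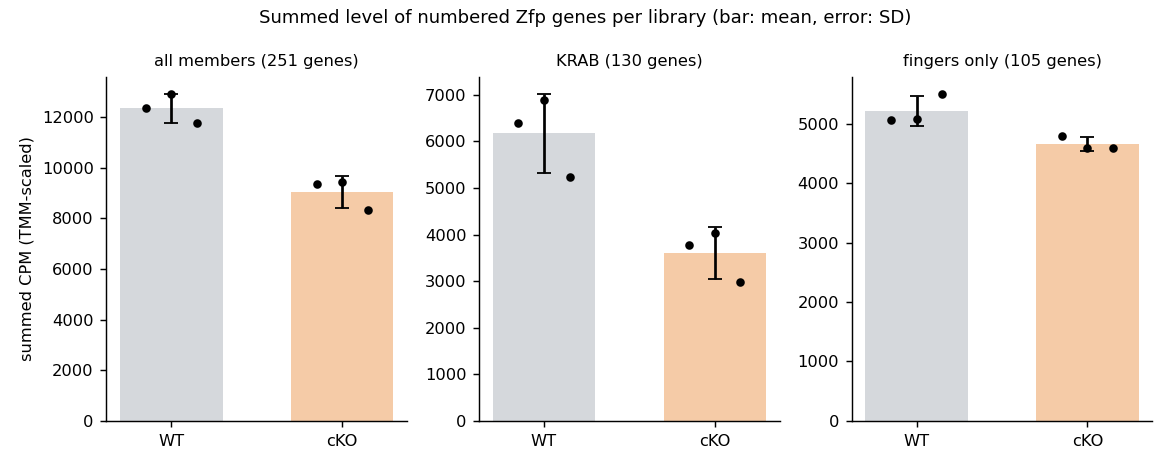
Summed CPM of all 251 numbered Zfp genes, of the 130 KRAB members and of the 105 fingers-only members; points are libraries, bars the mean of 3 libraries and error lines the SD. The KRAB sum in cKO was 58.3% of the WT mean, and that of the fingers-only members 89.2%.

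Gene by gene, 104 members fell in cKO, 34 rose and 113 were not called in edgeR's quasi-likelihood test with Benjamini-Hochberg adjustment over all 14114 tested genes at 0.05. Among all tested genes 40.2% were called, 20.1% higher and 20.1% lower, while 13.5% of the members were called higher and 41.4% lower. The median log2 fold change of the members was -0.44, with the middle 50% between -0.93 and 0.24; that of all tested genes was 0.01. In 122 members every cKO library was below every WT library, against 26.0% of all tested genes, and in 39 members every cKO library was above every WT library, also against 26.0%. A called fall of at least 2-fold was found for 55 members and a called rise of at least 2-fold for 19. Among all 14114 tested genes these counts were 1128 and 1440. All 251 members passed the filter on low counts. Of the 138 numbered Zfp genes under 3 CPM, 68 were tested, with 7 higher and 8 lower, and 70 were not. Setting totals by the ERCC spike-in share moved the median of all genes to -0.39. With it 149 members were lower and 16 higher, with a median of -0.84, beside 4832 lower and 1182 higher of all 14114 tested genes.

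The protein classes had different counts. Of the 130 KRAB members 76 fell, 10 rose and 44 were not called, with a median log2 fold change of -0.72; the falls ran from -0.54 to -2.21. Of the 105 fingers-only members 26 fell, 23 rose and 56 were not called, and their median was 0.02. Among the 4 SCAN members 1 fell and 3 were not called, and among the 10 members without a finger of the searched spacing 1 fell and 1 rose. Counts also went with the number of fingers. With 1 to 5 fingers 13 of 48 rose and 10 fell, with 6 to 10 fingers 12 of 69 rose and 27 fell, with 11 to 15 fingers 4 of 77 rose and 41 fell, and with 16 or more fingers 4 of 45 rose and 25 fell. No test of the difference between these classes was made, and the number of fingers, the KRAB domain and the GC content vary together.

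**Figure D2:**
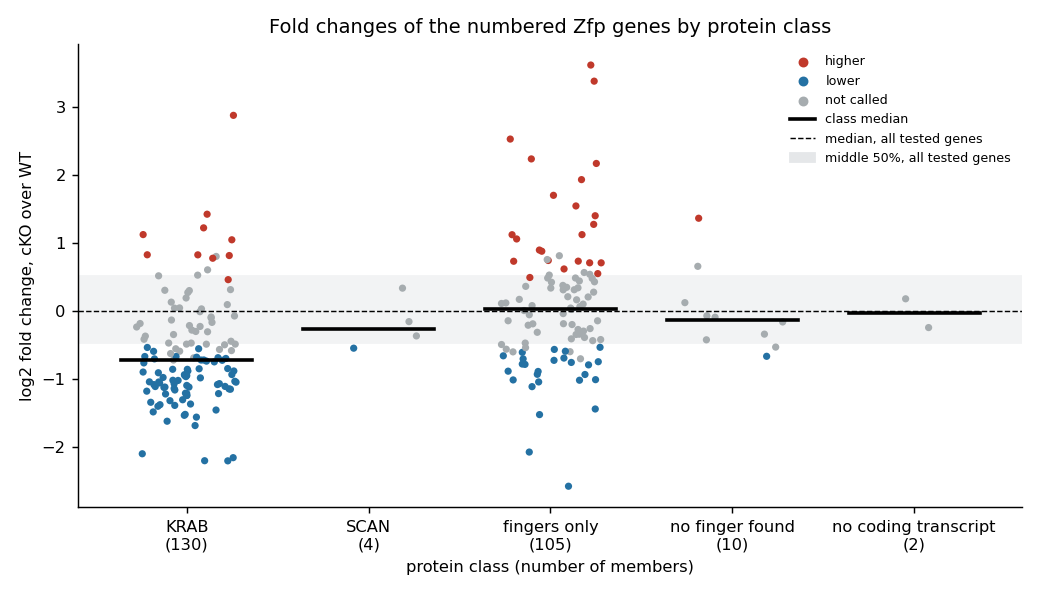
Log2 fold change of every numbered Zfp gene (1 point per gene) by protein class; red and blue mark genes called higher and lower in cKO, black bars the class medians, the dashed line the median of all tested genes and the grey band their middle 50%. The KRAB median of -0.72 lies below the band, and the fingers-only median of 0.02 lies inside it.

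Of the 10 largest falls all but Zfp770 and Zfp329, which are fingers-only genes, were KRAB members. These falls include Zfp770, Zfp329 and Zfp534, whose cKO means lay under 3 CPM (1.30, 2.29 and 2.03). These met the 3 CPM rule only through their WT libraries, so their low cKO level beside a fall is set by the rule. Zfp770, a fingers-only gene on chromosome 2, was at 8.20, 7.84 and 7.27 CPM in WT and at 1.40, 1.19 and 1.29 CPM in cKO, and its log2 fold change was -2.58 ± 0.28 (SE; adjusted p = 2.86e-05, edgeR's quasi-likelihood test). Zfp982, a KRAB gene on chromosome 4, was at 136, 126 and 57.5 CPM in WT and 16.5, 35.2 and 17.7 CPM in cKO, a log2 fold change of -2.21 ± 0.32 (adjusted p = 0.000227, edgeR). All WT values stood above all cKO values for both genes, and WT replicate 3 was the lowest WT library for each. Zfp944 was at 64.7, 75.7 and 46.5 CPM in WT and 13.7, 15.8 and 11.01 CPM in cKO, a log2 fold change of -2.20 ± 0.21 (adjusted p = 1.3e-05, edgeR). Zfp94, a KRAB gene on chromosome 7, was at 22.7, 25.6 and 18.01 CPM in WT and 5.71, 6.03 and 3.70 CPM in cKO, a log2 fold change of -2.10 ± 0.24 (adjusted p = 4.26e-05, edgeR). Zfp329, which has fingers alone, was at 8.59, 10.3 and 10.2 CPM in WT and 2.40, 2.45 and 2.01 CPM in cKO, a log2 fold change of -2.08. The groups of these 3 genes did not overlap either. The other 5 of the 10 largest falls were KRAB members: Zfp980 at -2.16, Zfp942 at -1.69, Zfp534 at -1.62, Zfp846 at -1.56 and Zfp758 at -1.54. Of these, Zfp980 shares 71.3% and Zfp534 68.4% of its 50-base words with transcripts of other genes, so reads could have been assigned between copies and their values are uncertain.

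The largest rises include 7 genes (Zfp800, Zfp622, Zfp54, Zfp787, Zfp771, Zfp580 and Zfp668) whose WT mean lay under 3 CPM. These met the 3 CPM rule only through their cKO libraries, so their low WT level beside a rise is set by the rule. Zfp800 was at 0.499, 0.554 and 0.305 CPM in WT and at 7.54, 4.59 and 4.93 CPM in cKO, a log2 fold change of 3.62 ± 0.39 (adjusted p = 2.96e-05, edgeR's quasi-likelihood test). Zfp622, whose yeast counterpart Rei1 acts in the maturation of the large ribosomal subunit, was at 0.428, 1.29 and 0.610 CPM in WT and at 9.71, 4.56 and 9.93 CPM in cKO, a log2 fold change of 3.39 ± 0.44 (adjusted p = 0.000105, edgeR). Every cKO library was above every WT library in both, and without WT replicate 2, the WT library with most Zfp622, the Zfp622 value was 3.98. Zfp54, the only KRAB member among the 10 largest rises besides Zfp954, was at 0.927, 0.738 and 0.763 CPM in WT and 7.34, 4.14 and 6.62 CPM in cKO, a log2 fold change of 2.88 ± 0.35 (adjusted p = 6.26e-05, edgeR). Zfp787 was at 0.855, 0.923 and 1.73 CPM in WT and 6.24, 6.07 and 7.84 CPM in cKO, a log2 fold change of 2.53. Zfp580 was at 1.43, 1.38 and 1.42 CPM in WT and 6.21, 4.87 and 8.09 CPM in cKO, a log2 fold change of 2.17, and 1.21 with length and GC content corrected for. No cKO library fell within the WT range of any of the 10. The others were Zfp771 at 2.24, Zfp575 at 1.94, Zfp668 at 1.71, Zfp367 at 1.55 and Zfp954 at 1.43, and 8 of the 10 were fingers-only genes. Zfp771 was the only one of these 20 genes whose call ended under any alternative: with length and GC content corrected for, its log2 fold change was 1.15 (adjusted p = 0.0624, edgeR).

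**Figure D3:**
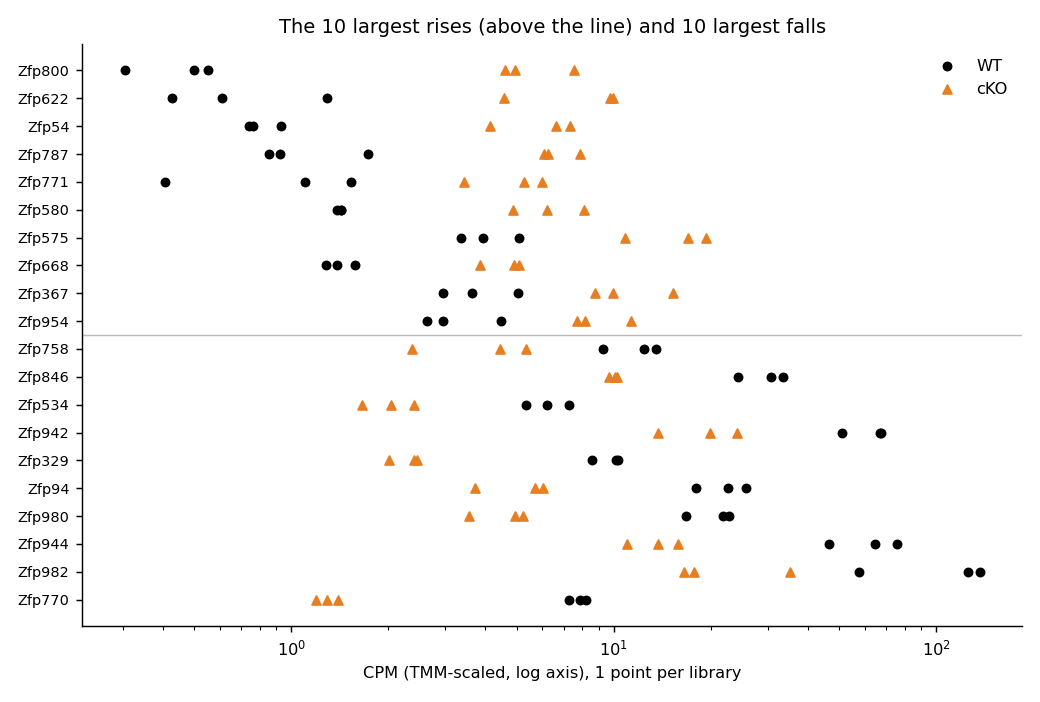
CPM on a log axis of the 10 largest rises (above the line) and the 10 largest falls among numbered Zfp genes that were called and whose groups did not overlap, with circles for the 3 WT libraries and triangles for the 3 cKO libraries. Zfp800 and Zfp622 start near or below 1 CPM in WT, while Zfp982 reaches 136 CPM in WT.

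Of the 6 most abundant members 4 fell, 1 rose and 1 was not called, beside 20.1% of all tested genes in each direction. Zfp296, a partner of the reprogramming factor KLF4 in stem cells, had the highest level per length of the members, 396 CPM per kb of exon. It was at 726, 656 and 811 CPM in WT and 488, 469 and 483 CPM in cKO, a log2 fold change of -0.61 ± 0.11 (adjusted p = 0.00101, edgeR's quasi-likelihood test), and -1.21 with the length and GC correction. Zfp655, a KRAB member, was at 767, 882 and 616 CPM in WT and 459, 466 and 332 CPM in cKO, a log2 fold change of -0.85 ± 0.16. Zfp68, also a KRAB member, was at 470, 462 and 333 CPM in WT and 168, 179 and 114 CPM in cKO, a log2 fold change of -1.46 ± 0.18. In all 3 genes the groups were apart. Zfp750, known from epidermal differentiation, was at 288, 339 and 376 CPM in WT and 187, 242 and 203 CPM in cKO and fell by 0.67 on the log2 scale. Zfp706 went the other way, from 258, 196 and 219 CPM in WT to 344, 380 and 397 CPM in cKO, a log2 fold change of 0.74 ± 0.13 (adjusted p = 0.000652, edgeR), and 0.33 with spike-in scaling (adjusted p = 0.216, edgeR). Zfp592 was at 248, 334 and 379 CPM in WT and 262, 258 and 276 CPM in cKO, with overlapping groups and no call (-0.27 ± 0.14); without WT replicate 1, its lowest WT library, the value was -0.41 (adjusted p = 0.0342, edgeR).

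Of 5 members known to silence retroelements or to guard imprints 2 fell and 3 were not called, beside 20.1% of all tested genes in each direction. Zfp932, which binds endogenous retroviruses in embryonic stem cells, was at 81.1, 103 and 64.6 CPM in WT and 35.6, 49.7 and 29.9 CPM in cKO, a log2 fold change of -1.11 ± 0.21 (adjusted p = 0.00108, edgeR's quasi-likelihood test); 37.0% of its 50-base words occur in other genes. Zfp568, which represses a placental promoter of Igf2, was at 26.7, 36.4 and 33.0 CPM in WT and 21.7, 19.6 and 18.7 CPM in cKO, a log2 fold change of -0.68 ± 0.17 (adjusted p = 0.0079, edgeR). Both fell without overlap of the groups. Zfp809, which recognises the primer binding site of murine leukemia virus, was at 7.02, 7.70 and 7.17 CPM in WT and 9.24, 10.5 and 7.26 CPM in cKO and was not called (log2 fold change 0.30 ± 0.23). Zfp445, which acts with ZFP57 at imprinted loci, was at 12.1, 22.6 and 19.7 CPM in WT and 24.5, 23.3 and 20.9 CPM in cKO and was not called (0.34 ± 0.22). Zfp708 was not called either (-0.47 ± 0.23), and 94.9% of its 50-base words occur in other genes. Without WT replicate 3 its value was -0.70 (adjusted p = 0.0164, edgeR).

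Trim28, the gene of the corepressor through which KRAB proteins act, rose in cKO. It was at 89.5, 89.4 and 112 CPM in WT and 162, 132 and 219 CPM in cKO, and its log2 fold change was 0.82 ± 0.17 (adjusted p = 0.00243, edgeR's quasi-likelihood test). Every cKO library was above every WT library. With spike-in scaling the value was 0.43 and the call was lost (adjusted p = 0.1, edgeR), and with the length and GC correction it was 0.34 (adjusted p = 0.0399, edgeR). Of 26 tested genes of the pathway 2 rose and 2 fell, or 7.7% in each direction, beside 20.1% of all tested genes. Dnmt3a, the DNA methyltransferase of the growing oocyte, was at 327, 271 and 355 CPM in WT and 168, 221 and 168 CPM in cKO, a log2 fold change of -0.77 ± 0.14 (adjusted p = 0.00103, edgeR). Trim24 fell by 0.42 on the log2 scale, a call lost without WT replicate 1 or 3 or cKO replicate 1 or 2, with library totals and with either correction (adjusted p up to 0.101, edgeR). Setdb1 was at 227, 268 and 290 CPM in WT and 256, 246 and 228 CPM in cKO and was not called (-0.11 ± 0.12).

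Of 10 members listed for roles in RNA, ribosomes, the spindle or SUMO conjugation 5 rose and 3 fell in edgeR's test, beside 20.1% of all tested genes in each direction; with spike-in scaling 4 of the 5 rises were not called. Besides Zfp622 and Zfp706 the risers were Zfp346, a protein that binds double-stranded RNA (0.90 ± 0.24), Zfp106, an RNA-binding protein (0.71 ± 0.14), and Zfp451, a SUMO ligase (0.62 ± 0.13). With spike-in scaling these 3 were at 0.54, 0.32 and 0.23, and Zfp346 was not called without cKO replicate 1 (adjusted p = 0.0588, edgeR). Zfp207, which loads the checkpoint protein BUB3 at kinetochores, was at 346, 369 and 262 CPM in WT and 212, 209 and 179 CPM in cKO, a log2 fold change of -0.70 ± 0.14 (adjusted p = 0.00166, edgeR). Zfp830, needed by the early mouse embryo, was at 112, 93.4 and 124 CPM in WT and 64.1, 68.4 and 67.0 CPM in cKO, a log2 fold change of -0.73 ± 0.14 (adjusted p = 0.00116, edgeR). The third to fall was Zfp593 (-0.66 ± 0.22), whose exons overlap another gene over 34.7% of their length, and its call was lost without WT replicate 1 or 3 or cKO replicate 1 or 3, with library totals and without the low-count filter (adjusted p up to 0.103, edgeR). Zfp598, the ubiquitin ligase of collided ribosomes, was at 24.2, 27.4 and 59.5 CPM in WT and 48.8, 40.7 and 71.9 CPM in cKO and was not called, with WT replicate 3 above 2 of the cKO libraries. Without WT replicate 3 its log2 fold change was 1.06 instead of 0.54 (adjusted p = 0.00364, edgeR).

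Among 14 members studied as regulators in stem cells and development, 2 rose, 2 fell and 10 were not called, beside 20.1% of all tested genes in each direction. ZNF592, ZNF687 and ZNF532, the human counterparts of 3 of them, form a complex with ZMYND8, and the mouse genes differed in direction. Zfp687 was at 28.4, 27.2 and 35.0 CPM in WT and 47.1, 35.5 and 45.2 CPM in cKO (log2 fold change 0.50 ± 0.17, adjusted p = 0.0336, edgeR). Zfp532 was at 30.3, 30.8 and 39.8 CPM in WT and 19.5, 21.6 and 17.2 CPM in cKO (-0.79 ± 0.18, adjusted p = 0.00367, edgeR). The call of Zfp687 was lost without WT replicate 1 or 2 and without cKO replicate 1 or 3, under spike-in scaling and with the length and GC correction. The other riser was Zfp217, whose human counterpart is amplified in tumours (0.55 ± 0.16; not called without cKO replicate 1, adjusted p = 0.0655, and at 0.16 with spike-in scaling, adjusted p = 0.634, edgeR), and the other that fell was Zfp148 (-0.59 ± 0.14), a call lost under the length correction (-0.39, adjusted p = 0.0512, edgeR) and the length and GC correction (-0.28, adjusted p = 0.0972, edgeR). Zfp281, Zfp322a and Zfp410, the last a regulator of Chd4, were not called, at 0.12, -0.39 and -0.41 on the log2 scale. Zfp143, an activator at many promoters, was at -0.42 ± 0.17 and not called (adjusted p = 0.0683, edgeR), but without WT replicate 3 it was at -0.55 (adjusted p = 0.025, edgeR) and Zfp322a at -0.54 (adjusted p = 0.029, edgeR).

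Runs of at least 3 members with neighbours at most 500 kb apart made 22 clusters with 129 members. In clusters 66 members fell and 17 rose, and of the 122 members outside clusters 38 fell and 17 rose. Of KRAB members, 59 of 92 in clusters and 17 of 38 outside fell, while 7 of the 37 clustered members of other classes fell and 9 rose. The median log2 fold change was below 0 in 18 of the 22 clusters. On chromosome 4 (147443114 to 147848418, mm10) all 5 members, Zfp982, Zfp979, Zfp534, Zfp984 and Zfp933, were called lower, with a median of -1.18. The calls of Zfp984 and Zfp933 were the weak ones: their groups overlapped, and each was lost without WT replicate 1, WT replicate 2, cKO replicate 1 or cKO replicate 3. Both were also lost with library totals (adjusted p = 0.0726 and 0.0642, edgeR) and with the length and GC correction, and that of Zfp933 with the length correction and in DESeq2 (adjusted p = 0.167). On chromosome 17 (32879221 to 33631714) 9 of 10 members fell, from Zfp81 at -0.70 to Zfp563 at -1.48. Zfp763 among them had a cKO mean under 3 CPM (2.85), as Zfp534 had on chromosome 4 (2.03). Both met the 3 CPM rule only through their WT libraries, so their low cKO level beside a fall is set by the rule. Zfp955a and Zfp955b, which fell, share 51.8% and 31.4% of their 50-base words with other genes. The calls of Zfp81 and Zfp763 were lost without WT replicate 1 or 2 or cKO replicate 3, and that of Zfp763 also without cKO replicate 1 and with the length and GC correction. The tenth, Zfp414, has no finger of the searched spacing; it was at 29.8, 34.0 and 36.3 CPM in WT and 31.9, 35.9 and 41.3 CPM in cKO and was not called. On chromosome 2 (150114407 to 150485063) all 4 members fell, with a median of -1.13. Of these, Zfp937, Zfp442 and Zfp345 share 29.4%, 32.1% and 29.8% of their 50-base words with other genes, and Zfp120 0.87%. On chromosome 4 Zfp979, Zfp534 and Zfp984 share 26.7%, 68.4% and 54.5%, Zfp982 11.9% and Zfp933 1.05%. Reads could have been assigned between copies, so the values of genes with high shares are uncertain.

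The largest cluster, 15 members on chromosome 17 (21008941 to 22456689), had 9 members that fell and 1 that rose, with a median of -0.97. Zfp54, the riser, has as its neighbours among the members Zfp677, which fell by 1.09 on the log2 scale, and Zfp51, which was at 71.9, 85.3 and 55.0 CPM in WT and 58.2, 82.2 and 53.4 CPM in cKO and was not called. Zfp53 (0.52 ± 0.21) and Zfp947 (0.32 ± 0.26) were also above 0 without a call. Other clusters held both directions. On chromosome 7 (29768552 to 30107614) 7 of 10 members fell, among them Zfp383 at -1.21 and Zfp84 at -1.16, while Zfp940 (0.83 ± 0.25) and Zfp260 (0.71 ± 0.17) rose; Zfp940 was not called without WT replicate 1 or cKO replicate 1. On chromosome 13 (67069398 to 67827000), where all 12 members are KRAB genes, 5 fell and Zfp85 rose (0.83 ± 0.22). Zfp58 and Zfp729b, which fell, and Zfp85 share 46.6%, 39.9% and 24.2% of their 50-base words with other genes. Of the 5, Zfp759 and Zfp458 were not called without WT replicate 1 (adjusted p = 0.0656 and 0.0935, edgeR), WT replicate 2 or cKO replicate 3, and Zfp458 also with the length and GC correction (adjusted p = 0.0516, edgeR). On chromosome 8 (69209046 to 69774911) 4 of 6 KRAB members fell and Zfp963 rose (0.46 ± 0.17), a call lost without WT replicate 1 or 3 or cKO replicate 1 or 2 and with the length correction. With spike-in scaling Zfp940, Zfp260, Zfp85 and Zfp963 were not called. In a pair of clusters of 5 or more members no KRAB box was found by pattern. On chromosome 7 (4915217 to 5053723) Zfp580 rose and 0 of 5 fell in edgeR's test. There Zfp524 was at -0.44 (adjusted p = 0.0542, edgeR). It was called lower with spike-in scaling (-0.83), the replicate block (-0.44), the length correction (-0.71) and the length and GC correction (-1.05). Its adjusted p was 0.0491 in limma-voom and 0.0408 in DESeq2. Of its 50-base words 45.0% occur in other genes. On chromosome 6 (47835661 to 48086593) 2 fell and 1 rose of 6.

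**Figure D4:**
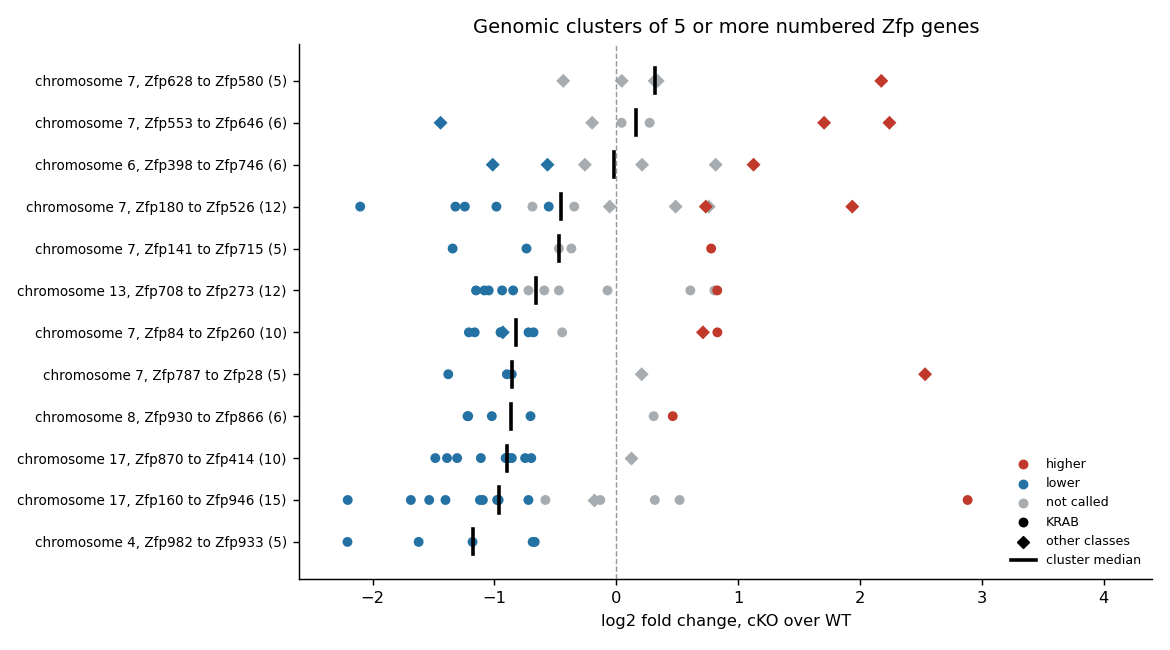
Log2 fold changes in the 12 genomic clusters of 5 or more numbered Zfp genes, 1 row per cluster, named by chromosome, first and last member and, in brackets, size; circles are KRAB members, diamonds other classes, red and blue calls higher and lower, and black bars medians. The 5 members on chromosome 4 all lie left of 0, and Zfp54 at 2.88 is the only called rise in the cluster of 15.

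In 3 places a pair of members start within 1000 bases of each other on opposite strands. Zfp944 and Zfp758 have 52 bases between their starts and Zfp942 and Zfp943 have 94, both on chromosome 17 in the cluster of 15. All 4 genes fell. Zfp942 was at 67.6, 67.1 and 51.0 CPM in WT and 19.9, 24.1 and 13.7 CPM in cKO, Zfp943 at 33.5, 36.7 and 26.9 CPM in WT and 13.8, 22.1 and 13.4 CPM in cKO, and Zfp758 at 12.4, 13.5 and 9.26 CPM in WT and 4.44, 5.33 and 2.37 CPM in cKO. The log2 fold changes were -1.69 and -0.98 in the Zfp942 pair and -2.20 and -1.54 in the Zfp944 pair, with the gene on the minus strand named first. The bases between the starts are shown because they lie before both genes of a pair at once; they are RefSeq sequence of GRCm38.p6, plus strand, and the capitals mark the stretch that is the same in both pairs.
Zfp944/Zfp758, chr17:22361401-22361452: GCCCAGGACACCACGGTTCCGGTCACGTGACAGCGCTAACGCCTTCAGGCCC
Zfp942/Zfp943, chr17:21962465-21962558: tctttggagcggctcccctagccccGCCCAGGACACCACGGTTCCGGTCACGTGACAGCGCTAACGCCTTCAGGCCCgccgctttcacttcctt
All 52 bases between Zfp944 and Zfp758 recur between Zfp942 and Zfp943, and the promoters of Zfp944 and Zfp942 are the same at 274 of 275 aligned bases. The transcripts are less alike: 10.4% of the 50-base words of Zfp944, 5.81% of Zfp758, 5.80% of Zfp942 and 2.26% of Zfp943 occur in another gene. The third pair, Zfp668 and Zfp646 on chromosome 7, has 864 bases between the starts and moved in opposite directions. Zfp668 was at 1.28, 1.38 and 1.58 CPM in WT and 4.91, 3.86 and 5.07 CPM in cKO (1.71 ± 0.32), and Zfp646 was at 14.8, 15.3 and 15.3 CPM in WT and 7.48, 5.19 and 4.03 CPM in cKO (-1.44 ± 0.25). The groups were apart in both.

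Promoter sequence was compared for the 210 members with an entry, 250 bases before to 50 after the start, on both strands. The word ACTACATT, picked after the promoters were read, was in 20.5% of 117 KRAB promoters, 4.76% of 84 fingers-only promoters and 1.81% of the promoters of all tested genes. The word GAGTGACA was in 19.7%, 2.38% and 2.07%. The GC-box word GGGCGG was in 35.9% of KRAB promoters, 71.4% of fingers-only promoters and 63.5% of all, and CCAAT was in 59%, 45.2% and 43.1%. TATAAA was in 6.84%, 7.14% and 9.77%. As for direction, 10 of the 24 KRAB members that hold ACTACATT fell and 4 rose, with a median of -0.48. Of the 93 without it 58 fell and 5 rose, with a median of -0.76. Among KRAB promoters, GAGTGACA was in 20.6% of the 68 of members called lower and 18.4% of the 49 others. GGGCGG was in 39.7% and 30.6%, CCAAT in 61.8% and 55.1%, and TATAAA in 1.47% and 14.3%. These splits were not tested. For 3 members with large changes the 250 bases before the first listed start are shown, with ACTACATT on either strand in capitals for Zfp94 and GGGCGG in capitals for Zfp787; Zfp54, the KRAB riser, holds neither word.
Zfp94, chr7:24316667-24316916, minus strand: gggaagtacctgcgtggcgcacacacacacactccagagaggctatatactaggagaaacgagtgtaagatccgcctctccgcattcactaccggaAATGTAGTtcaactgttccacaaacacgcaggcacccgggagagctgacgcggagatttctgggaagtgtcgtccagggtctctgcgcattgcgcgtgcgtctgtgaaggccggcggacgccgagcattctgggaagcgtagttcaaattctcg
Zfp54, chr17:21422977-21423226, plus strand: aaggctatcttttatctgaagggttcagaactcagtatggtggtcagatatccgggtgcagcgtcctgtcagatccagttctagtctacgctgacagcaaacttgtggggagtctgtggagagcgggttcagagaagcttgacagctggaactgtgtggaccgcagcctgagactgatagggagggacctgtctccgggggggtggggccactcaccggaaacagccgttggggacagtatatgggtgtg
Zfp787, chr7:6155966-6156215, minus strand: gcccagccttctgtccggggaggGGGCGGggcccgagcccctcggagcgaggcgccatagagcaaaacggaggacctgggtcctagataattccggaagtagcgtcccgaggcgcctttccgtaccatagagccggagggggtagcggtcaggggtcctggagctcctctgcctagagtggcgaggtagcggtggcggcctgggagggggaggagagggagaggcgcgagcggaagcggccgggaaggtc
The Zfp787 stretch has a GC content of 69.2% and 22 CG steps, that of Zfp94 56.4% and 21, and that of Zfp54 55.6% and 8.

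Base composition moved with the fold changes over the whole table, and the KRAB members are poor in GC, so both were read together. Members that fell had a median transcript GC content of 41.4% and members that rose 47.0%, and the median share of codons ending in C was 19.9% against 30.2%. Among all tested genes with a GC content below 39.88%, 29.4% were lower and 15.5% higher; among KRAB members in that bin 32 of 51, or 62.7%, were lower and 2 were higher. Between 39.88% and 43.73%, 27.4% of all tested genes and 23 of 41 KRAB members (56.1%) were lower, and between 43.73% and 50.5%, 24.3% of all tested genes and 18 of 32 KRAB members (56.2%). The fingers-only members in these 3 bins were lower in 5 of 11, 7 of 17 and 5 of 24. Above 50.5% GC 25.5% of all tested genes and 13 of 53 fingers-only members (24.5%) were higher. Once length and GC content were corrected for, 68 KRAB members were lower and 13 higher, against 76 and 10 without it, and the median of all members was -0.36. The trend for that correction came from tested genes that are not members.

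**Figure D5:**
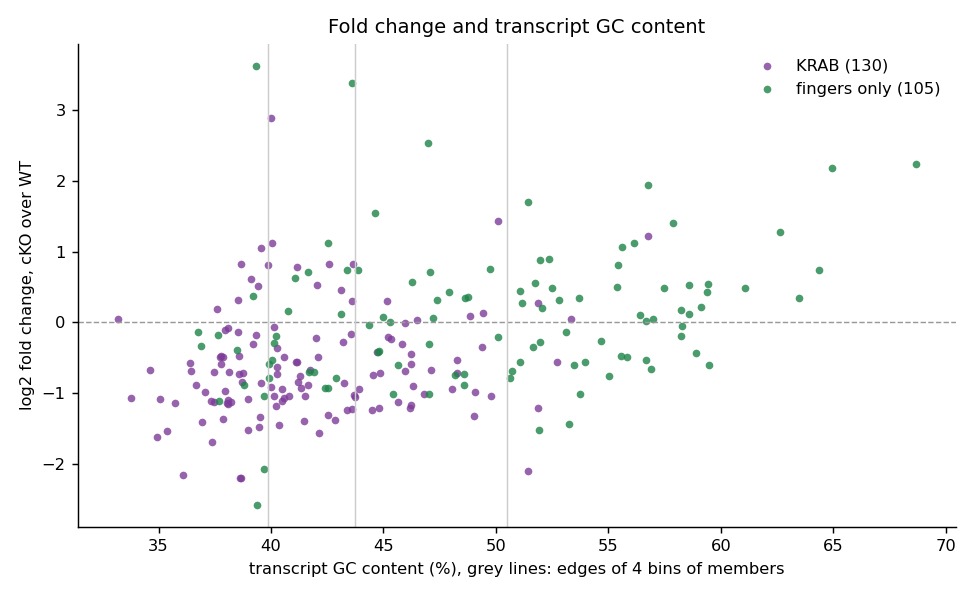
Log2 fold change against transcript GC content for the 130 KRAB and the 105 fingers-only members, 1 point per gene; vertical lines are the edges of the 4 GC bins. KRAB members lie mostly below 50.5% GC and below 0, and the points above 60% GC are fingers-only genes.

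Zinc finger genes with other names were counted beside the members. Of 65 such genes with a mean of at least 3 CPM 17 rose (26.2%) and 15 fell (23.1%), with a median log2 fold change of 0.04. Among all tested genes 20.1% were called in each direction, which is the share to set beside the family counts as well. The Zkscan genes, which can carry both a SCAN and a KRAB domain, had 5 of 7 lower and 1 higher. Of 30 Zbtb genes, which carry a BTB domain in place of KRAB, 6 rose and 4 fell, of 8 Zscan genes, which carry a SCAN domain, 4 rose and 2 fell, with a median of 0.75, and of 13 Zc3h genes, whose fingers bind RNA, 4 rose and 3 fell. Whether these families differ from the numbered Zfp genes was not tested.

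The counts were also taken without members of shared sequence and at other minimum levels. Of the 251 members 28 share over 20% of their 50-base words with another gene; among the other 223, 90 fell and 31 rose, and 62 of the 105 KRAB members among them fell. With a minimum mean of 1 CPM 111 of 294 numbered Zfp genes fell and 40 rose. With a minimum of 10 CPM 81 of 170 fell and 17 rose.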

How the data were processed

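Poly(A) RNA was measured by Smart-seq2, without molecular identifiers or strand, in 3 WT and 3 cKO libraries grouped by title and genotype label. The authors deposited raw counts per gene symbol with mm10 coordinates; Trim Galore 0.6.7, STAR 2.7.10a and featureCounts appear in the submitters' processing notes, and how reads with several matches were handled is not stated there. A second table deposited by the authors gives mapped and ERCC spike-in shares as a fraction, with the denominator unstated and taken to be all reads; endogenous reads per ERCC read set the spike-in scaling.

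All 14114 genes passing filterByExpr (minimum count 10) were fitted with edgeR 4.0.16 in R 4.3.3: TMM factors, quasi-likelihood F test, two-sided, no block, Benjamini-Hochberg adjusted p under 0.05. The biological coefficient of variation was 0.215. The fit was tested on simulated data. SE is the log2 fold change divided by the square root of F. DESeq2 1.42.0, limma 3.58.1 and mgcv 1.9.3 served the alternatives. Fingers, KRAB and SCAN boxes were found by pattern in translated GENCODE M21 transcripts (GRCm38), which also gave shared 50-base words and GC content; 97.99% of tested genes had a GC value. The RefSeq proteins that the design named were not used here. Promoters are RefSeq, GRCm38.p6.

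Named genes followed a rule: 10 rises and 10 falls of largest size among called members whose groups do not overlap, the 6 most abundant, 3 on either side of 3 CPM, 3 role lists, clusters of 5 or more members, called TRIM28 pathway genes, Trim28 and Nat10. Setdb1 and the cluster on chromosome 2 were added after their values were seen. The members, lists and rules were chosen with earlier results of these data known. Not every gene of the rule is printed, and 1 called gene of the TRIM28 pathway is not reported here. Alternatives were 3 other scalings, no low-count filter, 2 other tools, a replicate block, length correction, other minimum levels and leaving out each library. The correction for length and GC content and the restriction on shared 50-base words were chosen after seeing the data.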

Additional observations from a re-analysis of the deposited data

How the results depend on the processing

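Counts of members called lower stayed within 1.5 times of 104 and those of KRAB members within 1.5 times of 76 under every alternative run. Spike-in scaling, which moved the median of all tested genes to -0.39, moved the counts of higher calls: 16 members, 3 KRAB members, 12 fingers-only members and 8 other zinc finger genes were higher, while 45 fingers-only members and 24 other zinc finger genes were lower, and the members' median was -0.84. With library totals alone that median was -0.33. Of all tested genes 1182 were higher and 4832 lower with spike-in scaling. At a minimum mean of 10 CPM 17 members were higher. Of TRIM28 pathway genes, 7 were higher with library totals, 0 with spike-in scaling (8 lower), 5 without the low-count filter, 4 with the length correction, 7 with the length and GC correction and 5 with DESeq2; 1 was lower with library totals, with the length correction and with the length and GC correction. Leaving out 1 library gave 27 to 40 members higher and 87 to 107 lower, 7 to 11 KRAB members higher and 64 to 78 lower, medians of -0.46 to -0.36, and 1 to 4 TRIM28 pathway genes higher and 1 to 2 lower. The length and GC correction reversed Zfp414 to -0.41 (adjusted p = 0.0432, edgeR) and Zfp428 to -0.12 (adjusted p = 0.686, edgeR). The cause of these changes was not tested. Of the 20 largest changes all kept their direction and call under every alternative except Zfp771 with the length and GC correction, Zfp580 moved from 2.17 to 1.21 with that correction, and Zfp622 to 3.98 without WT replicate 2.

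Replicate numbers did not pair the libraries: deviations of same-numbered libraries correlated at -0.02, 0.06 and 0.106. With the replicate block 41 members were higher, 118 lower, and 5 TRIM28 pathway genes higher. Genes near 3 CPM rest on few reads, and a count of 0 would allow up to 0.149 CPM in the shallowest library.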
